A study of Homo sapiens with 6 samples.

Results

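Broad H3K4me3 domains without H3K27me3 are stretches of chromatin with 4 kb or more under H3K4me3 peaks in Low-Chir cells. Between their ends no peak of the Polycomb mark H3K27me3 was called. The domains were chosen from the peak lists themselves. H3K4me3 peaks of both conditions on chromosomes 1 to 22 with gaps of at most 3 kb between them were merged into loci. A locus was kept when its Low-Chir peaks covered 4 kb or more and no H3K27me3 peak of either condition shared a base pair with it. This gave 2153 domains among 15988 loci, or 13.5% of all loci and 86.0% of the 2504 loci that met the length condition.

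The cells came from H9, a widely used line of human embryonic stem cells, and were sampled as neural progenitors on day 11 of differentiation toward midbrain dopamine neurons. Boost-Chir cultures received 7.5 µM CHIR99021 from day 4 to day 10. For Low-Chir cultures the labels do not state which concentration was used from day 4, and the lowest that they list is 0.7 µM. Both cultures began in 0.7 µM CHIR99021 with sonic hedgehog (SHH C25II), LDN, SB431542 and a Rock inhibitor. SHH, LDN and SB were withdrawn on day 7, and from day 10 both received 3 µM CHIR99021 with BDNF, GDNF, ascorbic acid, TGFβ3 and dibutyryl cAMP. CHIR99021 blocks GSK3, a kinase that marks β-catenin for breakdown, and so switches on the WNT pathway. Chromatin immunoprecipitation followed by sequencing was done with 1 library per mark and condition, from 1 cell line, so no difference below has a replicate check and no p-value was computed. Bulk chromatin does not tell a domain that is wide in every cell from one that is wide in some of them.

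H3K4me3, trimethylation of lysine 4 of histone H3, is placed by the SET1 and MLL complexes, which are drawn to unmethylated CpG islands at promoters. At most active genes it flanks the transcription start over a short distance. At some genes it spreads over several kilobases into the transcribed region, and such broad domains are known for marking genes that define a cell's identity as well as constantly active genes. H3K27me3 is the mark of Polycomb repression, and promoters that carry both marks are called bivalent. Genes cannot be named at these domains here, because positions are on hg19 and no annotation of that build was used. No sequence of hg19 was used either, and positions are counted from 1.

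Across chromosomes 1 to 22 the H3K4me3 lists held 45390 Boost-Chir peaks and 42647 Low-Chir peaks. The H3K27me3 lists held 25893 Boost-Chir peaks and 25370 Low-Chir peaks, with median widths of 356 and 372 bp. Being without H3K27me3 here means that no peak was called, and signal below the calling threshold was not examined. Depth, inferred from the background of each H3K4me3 list and not from read totals, was 1.21 times as high in Boost-Chir as in Low-Chir. All loci together were longer in Boost-Chir at 79.6% of 15988. The part of this difference in depth in the lengths below was not tested.

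The 2153 domains covered 14.8 Mb under Boost-Chir peaks and 12.1 Mb under Low-Chir peaks. They held 30.7% of all H3K4me3 length in Boost-Chir and 32.2% in Low-Chir. A domain had a median of 6.26 kb in Boost-Chir, with 5% below 4.35 kb and 5% above 11.7 kb. In Low-Chir the median was 4.97 kb, and 95% of domains lay below 9.23 kb. Most domains thus sat not far above the threshold in Low-Chir, with 1095 of them (50.9%) between 4 and 5 kb. At the threshold itself, the domains with the lowest Low-Chir length had 4001, 4001 and 4002 bp there. Their Boost-Chir lengths were 5948, 3753 and 4215 bp. The first 3 loci under the threshold had 3999, 3999 and 3997 bp in Low-Chir, and 2589, 7063 and 6153 bp in Boost-Chir. The loci on both sides of the threshold therefore overlapped in Boost-Chir length. The label "broad" was checked against continuity. After gaps of 500 bp or less were closed, 2041 domains held an unbroken Boost-Chir run of 4 kb or more and 1872 an unbroken Low-Chir one. The other domains reached the threshold as a sum of shorter, separate runs.

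Nearly all domains were also broad in Boost-Chir, whose length the threshold did not use. Boost-Chir peaks did take part in joining the loci and in leaving out those with H3K27me3. Of the 2153, 2096 (97.4%) had 4 kb or more in Boost-Chir. The 57 that did not had a median of 3.69 kb in Boost-Chir and 4.25 kb in Low-Chir, and the lowest of them had 2.22 kb in Boost-Chir. The share of 97.4% was not computed for other broad loci. The 351 broad loci with H3K27me3 also had a Boost-Chir median above the threshold, at 5.95 kb. Boost-Chir was longer at 79.6% of all loci, so a high share is not particular to the domains. In the other direction, 4107 loci without H3K27me3 had 4 kb or more in Boost-Chir, and 2011 of these were under the threshold in Low-Chir. All of the 2011 had Low-Chir peaks, with a median length of 4.63 kb in Boost-Chir and 3.33 kb in Low-Chir, and 1422 of them had at least 3 kb in Low-Chir. Of the 100 domains that were longest in Boost-Chir, 77 were among the 100 longest in Low-Chir. Across the 2153 domains, Spearman's rho between Boost-Chir and Low-Chir length was 0.73, as a description of 2 libraries that share their loci.

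Most domains were longer in Boost-Chir, by a modest amount at the median. The Boost-Chir length was 1.22 times the Low-Chir length at the median (exact 95% interval of the median 1.21 to 1.23). Over all 13950 loci with peaks in both lists this median was higher, at 1.28 (1.27 to 1.28). From the lowest to the highest 5% of domains the ratio ran from 0.921 to 1.59. In all, 1918 domains (89.1%, exact interval 87.7 to 90.4) were longer in Boost-Chir, beside 79.6% of all loci. Some of all loci had peaks in only 1 list, while every domain had peaks in both. These intervals cover counting error only and treat domains as independent, which neighbours are not. The median ratio differed little between length classes. It was 1.25 for the 1095 domains of 4 to 5 kb in Low-Chir, 1.22 for the 518 of 5 to 6 kb and 1.19 for the 367 of 6 to 8 kb. It was 1.19 for the 96 domains of 8 to 10 kb, 1.23 for the 59 of 10 to 15 kb and 1.16 for the 18 of 15 kb or more. The choice by Low-Chir length enters this ratio: with 4 kb asked of the mean of both conditions it was 1.29, and with 4 kb asked of Boost-Chir it was 1.33.

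**Figure D1:**
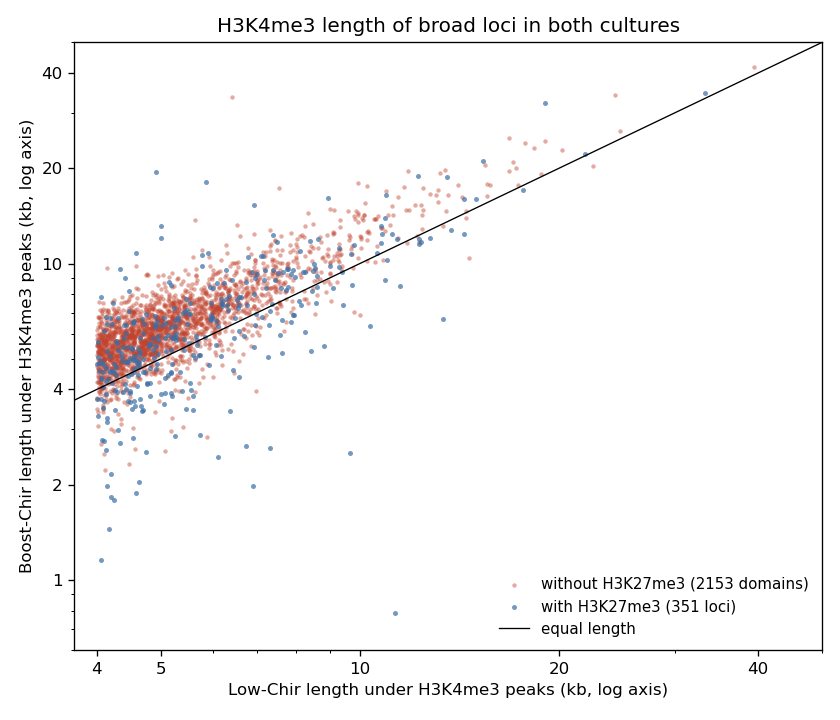
Length under H3K4me3 peaks in Boost-Chir (vertical) and Low-Chir (horizontal), both on log axes in kb, with 1 point per locus of 4 kb or more in Low-Chir. Of the 2153 domains without H3K27me3, 1918 lie above the line of equal length, and of the 351 loci with H3K27me3, 219 do.

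The spread around this ratio was narrower than at other kinds of loci. Broad loci that carried H3K27me3 were of similar length in Low-Chir, with a median of 5.25 kb, but their ratio was 1.09 (1.06 to 1.12) and ran from 0.542 to 1.66 between the outer 5%. Of these 351 loci, 219 (62.4%, 57.1 to 67.5) were longer in Boost-Chir. A shortening by at least 2 kb was found at 10 of the 2153 domains (0.464%, 0.223 to 0.853) and at 30 of the 351 loci with H3K27me3 (8.55%, 5.84 to 12). It was found at 0.344% of all loci, but their median Low-Chir length was 2.07 kb, so many could not lose 2 kb. These intervals cover counting error only, and the difference between the classes has no replicate check. The most significant summits of loci with H3K27me3 held a median of 44 reads in Boost-Chir and 35 in Low-Chir, against 55 and 42 in the domains. The part of summit height in these shares was not tested. The share of shortened domains was 0.926% with a threshold of 6 kb and 0.0974% with 4 kb asked of Boost-Chir. The loci under 4 kb without H3K27me3 that had peaks in both lists numbered 8309. Their ratio was 1.34 (1.33 to 1.35) and ran from 0.806 to 2.26. Domains were chosen for length in Low-Chir and short loci for lack of it, and the part of this choice in the difference was not tested.

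How many domains count as extended depends on the scale. In base pairs, 472 domains (21.9%, 20.2 to 23.7) gained 2 kb or more in Boost-Chir, beside 7.34% of all loci and 5.41% of the short loci without H3K27me3. At the 351 broad loci with H3K27me3, which met the same length condition, the share was 15.7% (12 to 19.9). With a threshold of 6 kb in place of 4 kb the share of domains was 36.9%. In proportion, 209 domains (9.71%, 8.49 to 11.0) were at least 1.5 times as long, beside 26.9% of the loci with peaks in both lists. At the broad loci with H3K27me3 that share was 8.55% (5.84 to 12), near that of the domains. A ratio of 2 or more was found in 6 domains (0.279%), beside 7.70% of the loci with peaks in both lists. A ratio under 0.75 was found in 27 domains (1.25%), beside 5.83% of those loci. The rule used Low-Chir length, so these shares are given as a description.

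**Figure D2:**
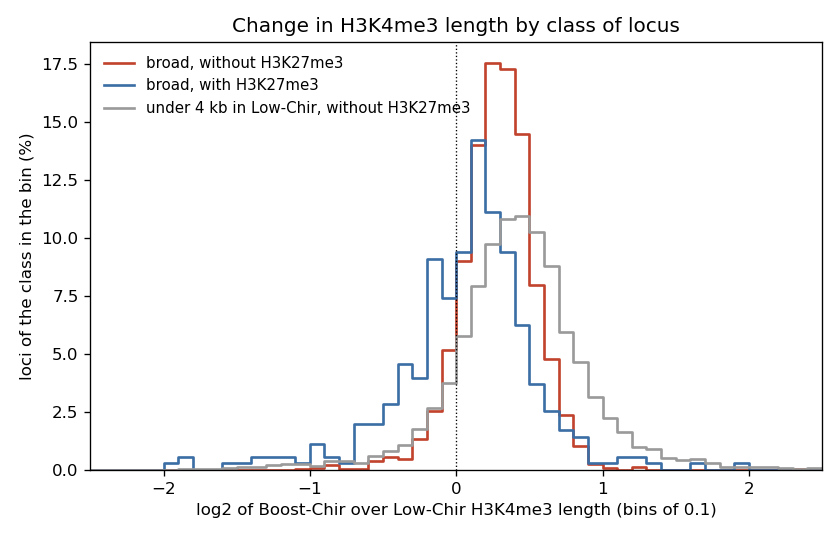
Share of loci (percent, vertical) by the log2 of Boost-Chir over Low-Chir H3K4me3 length (horizontal, bins of 0.1) for 3 classes of locus with peaks in both lists. The domains without H3K27me3 form a narrow curve right of 0 (median ratio 1.22), the broad loci with H3K27me3 a wider one (1.09), and the short loci one shifted further right (1.34).

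The added length came from 2 places. Boost-Chir peaks covered 2.00 Mb in gaps between Low-Chir peaks of the same domain and 1.77 Mb beyond the outermost Low-Chir edges. Gaps thus took 53.1% of the gained length in the domains. This share was higher at broad loci with H3K27me3, at 66.4%. It was 39.5% over all loci with peaks in both lists and 32.7% at the short loci without H3K27me3, which have fewer gaps. In turn, 0.983 Mb under Low-Chir peaks was not under a Boost-Chir peak, so 91.9% of the Low-Chir length was kept, against 82.4% at broad loci with H3K27me3. At the median domain, Boost-Chir peaks added 634 bp in gaps and 658 bp outside, and 339 bp were not kept.

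Which of these places prevailed followed the number of Low-Chir peaks. The 38 domains made of 1 Low-Chir peak gained a median of 1150 bp beyond its edges. The 625 domains of 2 or 3 peaks gained 902 bp outside and 249 bp in gaps. The 1097 domains of 4 to 6 peaks gained 598 bp outside and 729 bp in gaps, and the 393 domains of 7 or more peaks gained 493 and 1811 bp. More peaks leave more gaps, and the ratio of lengths hardly differed over these classes, at 1.23, 1.22, 1.22 and 1.25 in turn. Peak numbers moved both ways: 924 domains had fewer peaks in Boost-Chir, 854 had more and 375 had as many, with a median of 4 in each condition. The widest peak of a domain had a median of 4.25 kb in Boost-Chir and 2.96 kb in Low-Chir. The median ratio of widest peaks, Boost-Chir over Low-Chir, was 1.35 in the domains and 1.33 over all loci with peaks in both lists. It was 1.36 at the short loci without H3K27me3 and 1.20 at broad loci with H3K27me3, so wider peaks were not particular to the domains. A single peak of 4 kb or more was present in 1239 domains in Boost-Chir and in 468 in Low-Chir. The counts of peaks and of single wide peaks were not set beside those of other loci.

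**Figure D3:**
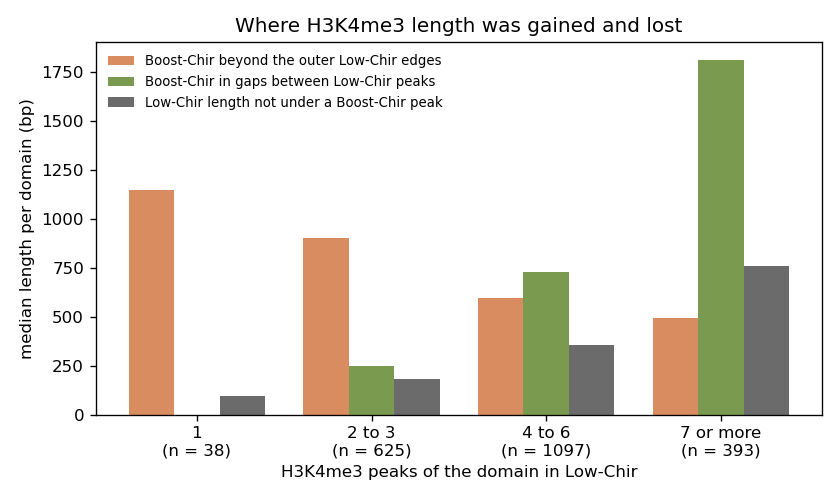
Median length per domain (bp, vertical, from 0) by the number of H3K4me3 peaks of the domain in Low-Chir (horizontal). Bars give Boost-Chir length beyond the outer Low-Chir edges, Boost-Chir length in gaps between Low-Chir peaks, and Low-Chir length not kept; the gap bar grows to 1811 bp and the outer bar drops to 493 bp in domains of 7 or more peaks.

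Taken over all domains, Boost-Chir cover beyond the Low-Chir edges was found on either side of the summit. From the most significant Low-Chir summit to the outermost Low-Chir edges, gaps included, each domain had a longer arm, with a median of 4056 bp, and a shorter arm, with a median of 2311 bp. Boost-Chir cover beyond the end of the shorter arm came to 981 kb in total and beyond the longer arm to 785 kb, so the shorter side took 55.6%. The arms were named from the same Low-Chir edges past which this cover was measured, so the larger share of the shorter side carries no weight. In 1092 domains (50.7%) Boost-Chir peaks passed both outer edges, in 858 (39.9%) 1 edge, and in 203 (9.43%) none. Cover of any length counted as passing an edge. Low-Chir peaks that passed Boost-Chir edges were not counted, and these shares were not taken over all loci. The Low-Chir summit itself lay under a Boost-Chir peak in 2151 of 2153 domains. The most significant summits of the 2 conditions stood within 200 bp of each other in 710 domains (33.0%) and over 1 kb apart in 527 (24.5%).

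**Figure D4:**
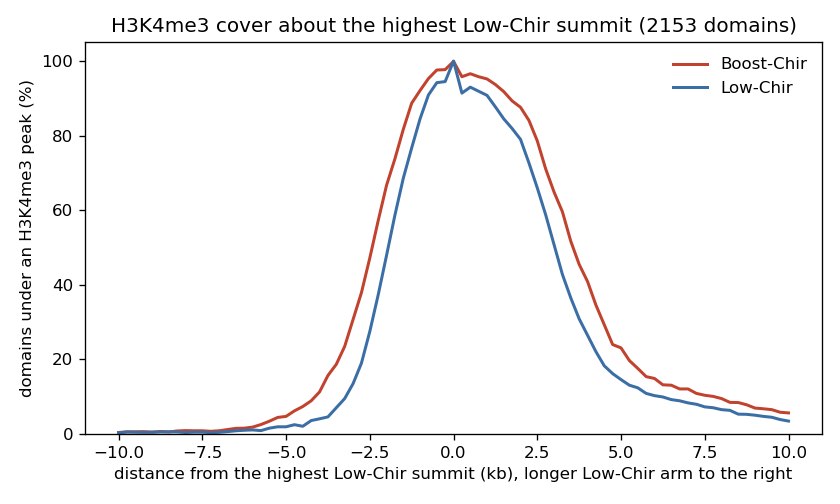
Share of the 2153 domains under an H3K4me3 peak (percent, vertical) by distance from the most significant Low-Chir summit (kb, horizontal), with the longer Low-Chir arm to the right. At 3 kb along the longer arm 64.9% of domains were covered in Boost-Chir and 50.8% in Low-Chir. At 3 kb along the shorter arm these shares were 30.7% and 13.5%. The arms were named from Low-Chir edges, so differences between arms are a description only.

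Summits were also somewhat higher in Boost-Chir at the median. The highest fold enrichment of a domain, the authors' value at a peak summit over local background, had a Boost-Chir median of 13.2 and a Low-Chir median of 11.9. The most significant summit held a median of 55 reads in Boost-Chir and 42 in Low-Chir, more than the 45 and 33 of short loci without H3K27me3. Once each library's reads above background were divided by its depth, the Boost-Chir value was 1.07 times the Low-Chir one at the median (1.06 to 1.08), and it was higher in 1478 domains (68.6%). That share was close to the 66.1% of all loci with peaks in both lists. At the short loci without H3K27me3 this ratio was 1.11 (1.10 to 1.11), and at the broad loci with H3K27me3 1.03 (0.999 to 1.06). Length and height within a library are given as a description. Spearman's rho between covered length and summit reads over the 2153 domains was 0.309 in Boost-Chir and 0.196 in Low-Chir. The rule cuts off Low-Chir lengths below 4 kb, which narrows the range behind both values. In the 472 domains that were at least 2 kb longer, the depth-scaled summit ratio was 1.12, and it was above 1 in 373 of them. In the 10 that were at least 2 kb shorter it was 0.726, and it was above 1 in 1. The other 1671 domains had a ratio of 1.06, and it was above 1 in 1104. Over all 2153 domains, Spearman's rho between the summit ratio and the length ratio was low, at 0.198. These groups were formed on length from the same libraries and were not compared with other loci.

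The longest domains ranged from long runs to arrays of short peaks, which the map of peaks shows. In some, 1 run held most of the marked chromatin. Chromosome 10 at 21781481 to 21827166 came first, with 41.9 kb in Boost-Chir and 39.5 kb in Low-Chir, and its longest run measured 31.7 kb in both. Chromosome 20 at 22541598 to 22568107 had 20.3 kb in Boost-Chir and 22.5 kb in Low-Chir, in runs of 20.1 and 22.5 kb. It was the only one of the 10 longest to be shorter in Boost-Chir. On chromosome 3 at 181426062 to 181448385 the lengths were 19.2 kb in Boost-Chir and 18.8 kb in Low-Chir, and on chromosome 2 at 145260384 to 145283620 they were 17.6 and 17.3 kb. The nearest H3K27me3 peak was 1029.9 kb from the chromosome 3 domain and 567 kb from the chromosome 2 domain. The ratios of length in these 4 domains were 1.06, 0.902, 1.02 and 1.02, closer to 1 than in most domains.

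The others were arrays of separate peaks. Chromosome 6 at 26178356 to 26227615 had 26.2 kb under 23 peaks in Boost-Chir and 24.8 kb under 30 peaks in Low-Chir, and its longest run was only 7.84 kb in Boost-Chir and 7.44 kb in Low-Chir. A second array on that chromosome, at 27770013 to 27811163, had 22.9 kb under 15 peaks in Boost-Chir and 20.2 kb under 25 peaks in Low-Chir. Chromosome 17 at 7107476 to 7160489 was the widest of all domains from end to end, at 53.0 kb, with 38 peaks in Boost-Chir and 24 in Low-Chir. H3K27me3 began 2.10 kb from its end. In the array on chromosome 1 at 154926748 to 154961817, 24.3 kb in Boost-Chir stood against 19.0 kb in Low-Chir, and the longest run measured 19.4 kb in Boost-Chir and 5.35 kb in Low-Chir. Gaps that had separated Low-Chir peaks there were under Boost-Chir peaks or short enough to be closed. Chromosome 1 at 150228060 to 150259392 was built alike, with runs of 18.8 kb in Boost-Chir and 5.25 kb in Low-Chir. Chromosome 6 at 33235893 to 33272813 had 23.1 kb in Boost-Chir and 18.4 kb in Low-Chir in runs below 10 kb.

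The same division was applied to all 77 domains of 10 kb or more in Low-Chir, of which 67 were longer in Boost-Chir. The 30 with a continuous run of 10 kb or more in Low-Chir had a median ratio of 1.06, from 0.714 to 1.53, and 21 were longer in Boost-Chir. The 47 without such a run had a ratio of 1.28, from 0.992 to 1.72, and 46 were longer. Continuous runs leave few gaps by definition, so the 2 values describe the division and do not test it. Divided on Boost-Chir runs, which the Boost-Chir length in the ratio helps to set, the ratios were 1.19 for 53 domains with a run and 1.30 for 24 without. By peak number in Boost-Chir, the ratio was 1.12 for the 34 domains of under 10 peaks and 1.27 for the 43 of 10 or more. The domains with a Low-Chir run of 10 kb also lay further from H3K27me3, at a median of 443 kb against 86.3 kb. Their depth-scaled summit ratio was 1.03 against 1.14 in the arrays. By continuous run in Low-Chir, the leading domains after chromosomes 10 and 20 were chromosome 15 at 60285675 to 60304177, chromosome 17 at 79360245 to 79379065 and chromosome 5 at 90664807 to 90680897. Their ratios were 1.15, 1.14 and 0.966.

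**Figure D5:**
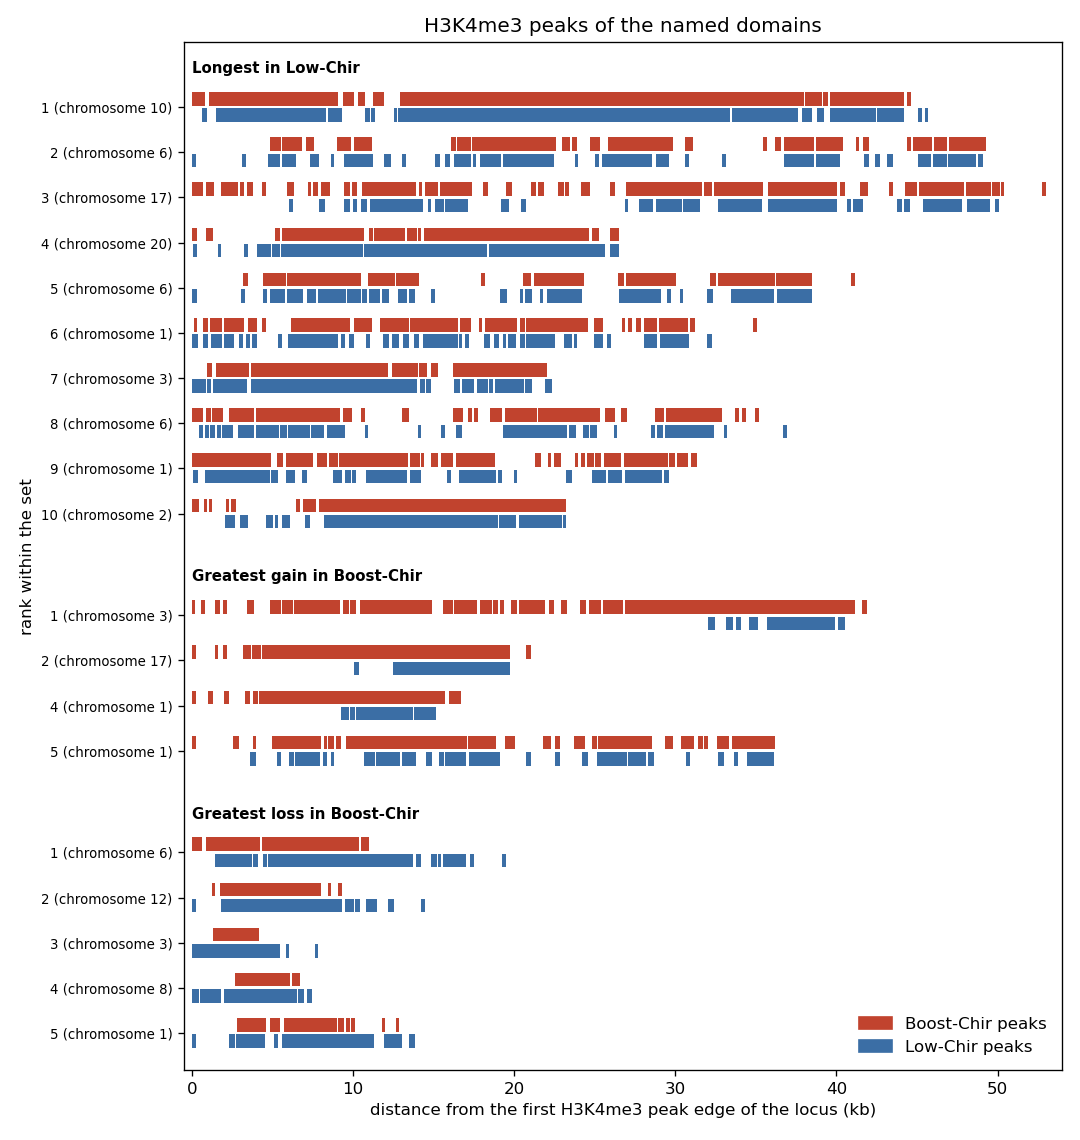
H3K4me3 peaks of the 10 longest domains in Low-Chir and of the domains with the greatest gain and loss in Boost-Chir, each as a pair of rows (Boost-Chir above Low-Chir), by distance from the first peak edge (kb). The gain ranked 3 is the chromosome 17 domain already drawn among the longest; long runs appear as nearly solid bars and arrays as broken ones.

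Of the 5 greatest gains, 3 were extensions past a Low-Chir edge, mostly on 1 side. At chromosome 3, 11645480 to 11687358, where 33.7 kb in Boost-Chir stood against 6.41 kb in Low-Chir, 25.2 kb lay beyond the Low-Chir edges and 24.3 kb of that on the side of lower coordinates. The domain had 25 Boost-Chir peaks and 6 Low-Chir peaks, and all its Low-Chir length was kept. Its most significant summit held 76 reads in Boost-Chir and 44 in Low-Chir, a depth-scaled ratio of 1.48. Chromosome 17 at 63537571 to 63558621 had a widest peak of 15.4 kb in Boost-Chir and 7.27 kb in Low-Chir. Of 7.74 kb beyond its Low-Chir edges, 7.35 kb lay on the lower side, and summit reads were 70 in Boost-Chir and 42 in Low-Chir. Chromosome 1 at 43410830 to 43427507 had 13.7 kb in Boost-Chir and 5.64 kb in Low-Chir, with 6.50 kb added on the lower side and 1.30 kb on the upper. The depth-scaled summit ratios of these 3 domains were 1.48, 1.36 and 1.58. Their highest folds were 14.0, 12.9 and 14.0 in Boost-Chir, against 9.19, 13.4 and 7.94 in Low-Chir, so the chromosome 17 domain was not higher by fold. H3K27me3 lay no closer than 326 kb to any of them. The other 2 of the first 5 were arrays. The chromosome 17 array at 7107476 gained 8.35 kb in gaps and 3.69 kb outside, and an array on chromosome 1 at 153923155 to 153959315 gained 8.62 kb in gaps and 0.623 kb outside.

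The greatest losses were mostly losses of flanks. Chromosome 6 at 163831349 to 163850824 had 10.4 kb in Boost-Chir and 14.6 kb in Low-Chir, with 5.59 kb of Low-Chir cover not kept and 1.14 kb added on the other side. Its summit reads were 61 in Boost-Chir and 56 in Low-Chir, a depth-scaled ratio of 0.897. On chromosome 12 at 19280906 to 19295353, 6.90 kb in Boost-Chir stood against 9.99 kb in Low-Chir. Chromosome 3 at 32277615 to 32285416 was reduced to 1 peak of 2.83 kb in Boost-Chir, against 5.87 kb under 3 peaks in Low-Chir. Chromosome 8 at 72268403 to 72275834 had 3.94 kb in Boost-Chir and 6.95 kb in Low-Chir. These 3 domains also had lower depth-scaled summits, at 0.794, 0.667 and 0.664. Chromosome 1 at 244206943 to 244220806 had 7.02 kb in Boost-Chir and 9.80 kb in Low-Chir. Its summit ratio was 0.999, so its length differed while its height hardly did. Much of its loss lay between Boost-Chir peaks. From 10133 to 11773 bp past its first peak edge it had no Boost-Chir peak, while a Low-Chir peak ran from 5584 to 11273 bp. The nearest H3K27me3 peak of either condition was 125 kb or more from each of these 5 domains.

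Of the 5 domains with the highest Low-Chir folds, 3 were nearly as long in both conditions. Chromosome 11 at 65255371 to 65276505 had the highest fold in Low-Chir, 20.5, against 11.9 in Boost-Chir. Its most significant summit held 75 reads in Boost-Chir and 65 in Low-Chir, a depth-scaled ratio of 0.917. The length of this domain was 14.7 kb in Boost-Chir and 14.5 kb in Low-Chir. The chromosome 3 domain at 181426062 had a fold of 16.1 in Boost-Chir, against 20.2 in Low-Chir. Chromosome 15 at 93423894 to 93450227 had 15.5 and 19.6, and chromosome 20 at 14309698 to 14318311 had 18.4 and 19.3 over 8.38 and 7.89 kb. The fifth, chromosome 17 at 30666077 to 30683341, differed in length, with 11.2 kb in Boost-Chir and 6.78 kb in Low-Chir. These 5 were chosen for their Low-Chir fold, so a lower fold in Boost-Chir carries no weight here.

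The domains lay farther from called H3K27me3 peaks than shorter loci without H3K27me3 did. The nearest H3K27me3 peak of either condition was a median of 159.7 kb away, against 112 kb for loci under 4 kb without H3K27me3. Of the domains, 47 (2.18%) had one within 5 kb of an end and 414 (19.2%) within 50 kb, while the shares of the short loci were 7.39% and 30.5%. A longer locus without H3K27me3 already clears more sequence by the rule. Domains also differed in their share of loci by chromosome. The share ran from 7.37% on chromosome 19 (80 of 1085 loci, 5.89 to 9.09) to 17.9% on chromosome 14 (92 of 515, 14.7 to 21.5). The median ratio of lengths ran from 1.15 on chromosome 18 to 1.30 on chromosome 22, and 83.5% to 100% of a chromosome's domains were longer in Boost-Chir. Neighbouring domains were a median of 600 kb apart, and 306 of 2131 gaps (14.4%) were 100 kb or less. In windows of 1 Mb the highest number was 8 domains. It was reached in 6 windows, with median ratios of 1.07, 1.19, 1.23, 1.25, 1.32 and 1.34. The lowest of these was on chromosome 6 at 26000001 to 27000000, which holds the first peak array described above, and the highest on chromosome 1 at 150000001 to 151000000.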

How the data were processed

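The submitters' processing notes name cutadapt 1.6, BWA 0.7.12, Picard and build hg19. Which program called peaks, and at what threshold, is not given in the sources used here. Each deposited list holds the peaks of 1 antibody library set against that condition's input, as the names of the deposited peaks show. The 2 input samples were not analysed here. The authors' fold enrichment is a ratio over local background, and the deposited −log10 p-value and −log10 q-value belong to each peak. The deposited score was not used.

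Loci were built as described, and lengths were summed per condition. The equations fold = (reads + 1)/(background + 1) and a Poisson tail matched the deposited −log10 p-value to within 0.001 at 100% of H3K4me3 peaks. They gave reads at the summit and the most common background of each list, 2.67 (Boost-Chir) and 2.21 (Low-Chir). The ratio of these backgrounds was taken as the ratio of depth, and no read total was used. Intervals are exact binomial at 95%, and those of medians use order statistics.

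Python 3.11.15, numpy 2.4.6, scipy 1.17.1, pandas 2.3.3 and matplotlib 3.10.9 were used, and the code was tested on simulated data. Members, lists and rules were chosen with earlier results of these data known. Named regions were the 10 longest in Low-Chir, the 5 greatest gains and losses, the 5 highest Low-Chir folds and 3 on each side of the threshold. The 5 longest continuous runs, the runs with gaps of 500 bp closed and the divisions of the 77 longest domains were added after values had been seen. Gene lists were not applied, since no gene was placed on hg19.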

Additional observations from a re-analysis of the deposited data

Results flagged for a closer look

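Chromosome X was left out by the rule, yet 46 of its 591 H3K4me3 loci (7.78%) met the same length and H3K27me3 conditions, and they stand out only as data not used above. Their median length was 5.73 kb in Boost-Chir and 4.84 kb in Low-Chir, the median ratio was 1.14, and 36 of the 46 were longer in Boost-Chir. At least 2 kb separated the conditions in 6 of them, each longer in Boost-Chir.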

How the results depend on the processing

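With 1 library per mark and condition, no library could be left out and the settings below show only how the values depend on the peak lists. No paired analysis was possible because each condition has 1 library per mark. No setting turned a direction. With a threshold of 3 kb there were 4160 domains, a median length ratio of 1.25, 16.8% at least 2 kb longer in Boost-Chir, folds of 12.7 (Boost-Chir) and 11.4 (Low-Chir) and a summit ratio of 1.09. With 6 kb there were 540 domains, with a ratio of 1.19, 85.9% longer, 36.9% at least 2 kb longer, 0.926% at least 2 kb shorter, folds of 13.8 and 12.5, 6 and 6 peaks and a summit ratio of 1.06. With the threshold on Boost-Chir length there were 4107 domains, with a ratio of 1.33, 95.7% longer, 0.0974% at least 2 kb shorter, folds of 12.8 and 11.4 and a summit ratio of 1.10. On mean length the ratio was 1.29, with 93.4% longer, 24.5% at least 2 kb longer, a Low-Chir fold of 11.7 and a summit ratio of 1.09. With the most significant 50% of H3K4me3 peaks there were 1337 domains, with a ratio of 1.20, 86.6% longer, 19.3% at least 2 kb longer, a Low-Chir fold of 12.1, 2 and 2 peaks and a summit ratio of 1.06. Joining within 1 kb gave a ratio of 1.21 and 18.1% at least 2 kb longer, and joining within 5 kb gave 23.8%. Equal numbers of peaks per condition gave 1.21 and 19.6%. Length taken as the longest continuous stretch, chosen after seeing the data, gave a ratio of 1.16, with 79.5% longer and 16.9% at least 2 kb longer. Asking for H3K27me3 to be absent within 5 kb, or using its most significant 50% of peaks, left 2106 and 2216 domains with a ratio of 1.22 in both. The causes of these differences were not tested. The part of depth in the place of domain edges was not tested.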
